A study of Mus musculus with 38 samples.

Results

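The mitochondrial carrier genes of mouse left ventricle, whose symbols begin with Slc25a, are described across the 4 groups of a study of heart failure with preserved ejection fraction (HFpEF). Members were the Slc25a rows with at least 10 counts in at least 8 libraries, which kept 42 of the 48 Slc25a rows among 29564 genes. Slc25a21, Slc25a41, Slc25a43, Slc25a48, Slc25a54 and the pseudogene Slc25a5-ps fell short, with no library above 7 counts, and all 42 members passed the filter for testing.

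Left ventricle was taken from C57BL6 mice (substrain C57BL/6J) of wild-type genotype, with 1 library per mouse. The non_failing group (n = 8) received vehicle. The other groups had HFpEF, made by feeding a fat-rich diet together with the nitric oxide synthase blocker L-NAME, and then received an oral dose each day. That dose was vehicle in HFpEF+Veh (n = 8), TYA-018, which inhibits HDAC6, in HFpEF+TYA-018 (n = 11), or empagliflozin, which inhibits SGLT2, in HFpEF+SGLT2i (n = 11). The comparisons ask which carriers differ in the disease model, under each drug, and between the drugs.

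Libraries held 21451600 to 59280400 counts. All 7 listed cardiomyocyte markers were present, and their summed TPM (transcripts-per-million, a level scaled for transcript length) ran from 15145 to 28420 over the 38 libraries. The library labelled HFpEF+Veh V2523 stood apart: its 12 hepatocyte markers summed to 1712 TPM, against at most 39.1 TPM in the other HFpEF+Veh libraries, 26.8 to 411 among non_failing libraries and at most 9.87 in either drug group. V2523 gave the highest HFpEF+Veh level for 16 of the 42 members, and values without it are given beside the calls it changed and beside those of these members that are described most closely. In non_failing, V2507 gave the lowest level for 23 of the 42 members and had the lowest summed cardiomyocyte markers of its group (19603 TPM). HFpEF+SGLT2i V2571 had the lowest such sum of the 38 libraries and the highest summed erythroid, white adipocyte, endothelial and macrophage markers of its group. Of the 6 white adipocyte markers only Fabp4 passed the filter for testing, so that sum is not read as fat in the sample. In bulk tissue, fewer cells of a type and less RNA per cell cannot be told apart.

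Mitochondrial carriers are small proteins of the mitochondrial inner membrane that swap or move metabolites between cytosol and matrix. In a heart cell they carry ADP in and ATP out, bring in the phosphate that ATP synthase needs, pass acylcarnitines to fatty acid oxidation, and move the aspartate, glutamate, malate and 2-oxoglutarate that bring reducing equivalents into the matrix. Others carry cofactors, iron and glutathione, or resemble the uncoupling proteins, and a few have no settled cargo.

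ADP/ATP exchange dominated the family by level, and the ADP/ATP class held the member called in the disease comparison and in the comparison of HFpEF+TYA-018 with HFpEF+Veh. Slc25a4, the heart and muscle ADP/ATP carrier (ANT1), averaged 2499 TPM over the 38 libraries, followed by the phosphate carrier Slc25a3 at 711, the malate/2-oxoglutarate carrier Slc25a11 at 181 and the second ADP/ATP carrier Slc25a5 at 165. These 4 members made up 89.9% ± 1.11 (SD, n = 38) of the summed TPM of the family. The lowest mean was 0.147 TPM, of the glutamate carrier Slc25a18. The summed level of the 42 members had a median of 4178 TPM in non_failing (3242 to 4723) and 3604 in HFpEF+Veh (3017 to 4308). HFpEF+TYA-018, at 4141 (3399 to 4950), and HFpEF+SGLT2i, at 3994 (2803 to 4610), lay between these medians, and the 4 ranges overlapped.

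**Figure D1:**
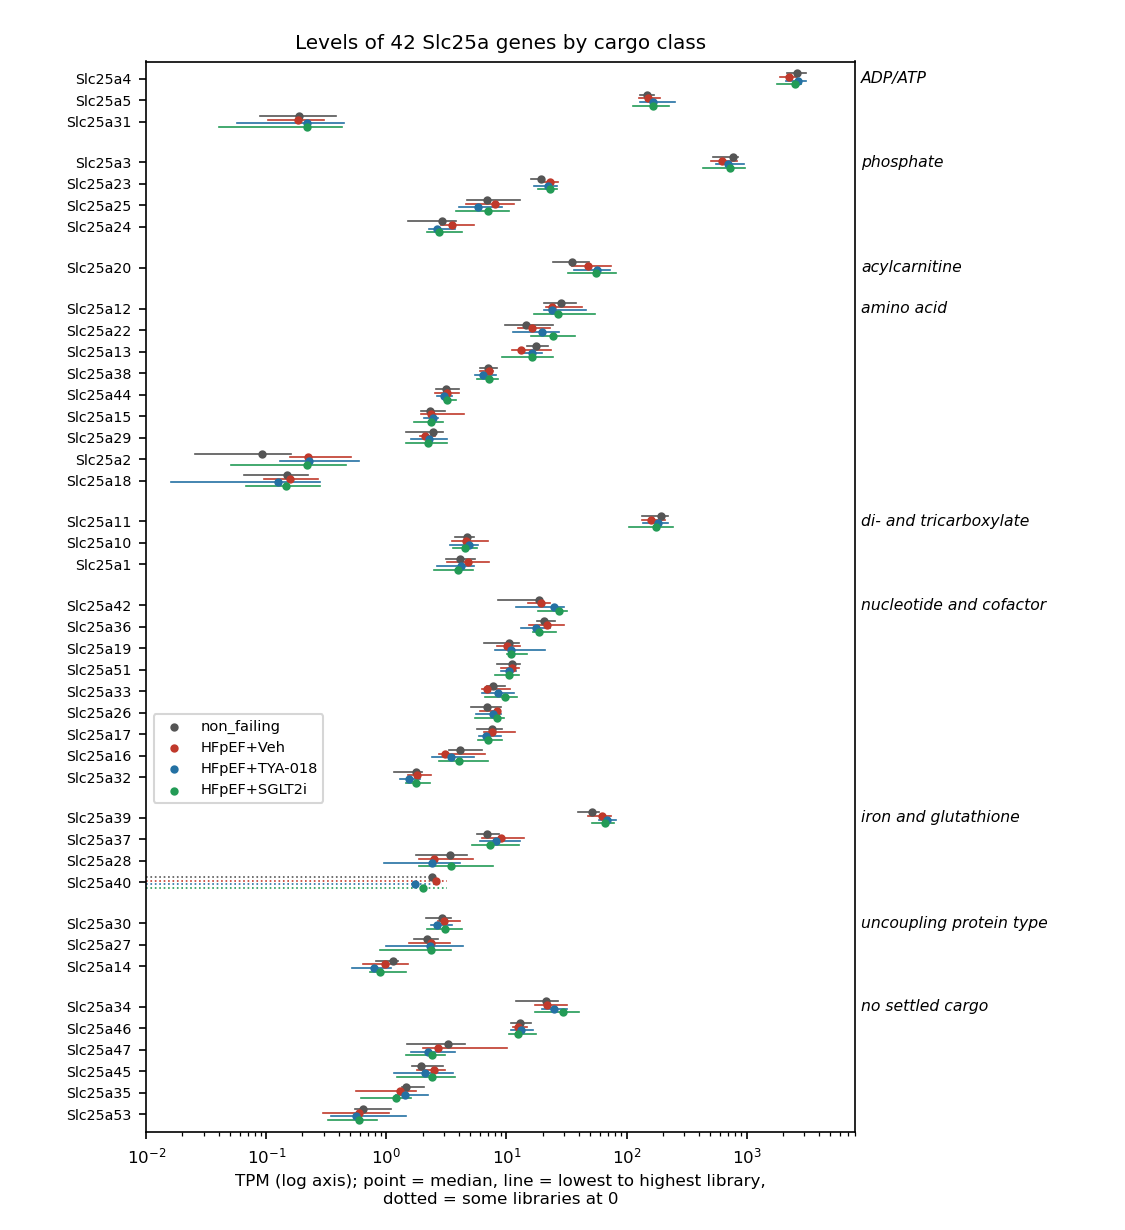
Level of each of the 42 members in TPM on a log axis, by cargo class and group; points are medians and lines run from the lowest to the highest library, dotted where some libraries are at 0. Slc25a4 lies above every other member in all 4 groups, and Slc25a18, Slc25a31 and Slc25a2 lie lowest.

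Changes were tested gene by gene on counts with edgeR's quasi-likelihood test, with calls made at an adjusted p under 0.05 over the 13765 genes tested. In HFpEF+Veh against non_failing, 1 of 42 members was called, a lower one, which is 2.38% against 3.15% of all genes tested (1.77% higher, 1.38% lower). In HFpEF+TYA-018 against HFpEF+Veh 1 of 42 was called, a higher one, against 1.93% of all genes (0.835% higher, 1.1% lower). In HFpEF+SGLT2i against HFpEF+Veh 1 of 42 was called, again higher, against 0.85% of all genes (0.131% higher, 0.719% lower). Without V2523 this comparison held 2 calls among all genes in place of 117, and none among the members. No member was called between HFpEF+TYA-018 and HFpEF+SGLT2i by edgeR or DESeq2. There the background was 0.0% of genes by edgeR (1.34% by DESeq2), and 4 members had an unadjusted p under 0.05 (9.52%, against 13.2% of all genes). Against non_failing, 4 of 42 members were called in HFpEF+TYA-018 (9.52%, background 7.39%) and 7 of 42 in HFpEF+SGLT2i (16.7%, background 6.45%). By unadjusted p under 0.05 the members' share was 21.4% in HFpEF+Veh (background 15.9%), 26.2% in HFpEF+TYA-018 (background 22.0%) and 19.0% in HFpEF+SGLT2i (background 19.6%) against non_failing, and these shares were not tested. All 11 of those calls against non_failing were higher in the drug group, where 4.0% of all genes were called higher and 3.39% lower in HFpEF+TYA-018, and 3.46% higher and 2.99% lower in HFpEF+SGLT2i. The 4 members called in HFpEF+TYA-018 are among the 7 of HFpEF+SGLT2i, so the 11 calls fall on 7 genes. Both sets hold Slc25a2, with 1 to 11 counts in non_failing (median 4), which met the member rule through the HFpEF groups. The higher direction of its calls was thus favoured by that rule.

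Members moved in both directions. The median log2 fold change of the 42 members was -0.00 in HFpEF+Veh against non_failing, 0.07 in HFpEF+TYA-018 against HFpEF+Veh and 0.10 in HFpEF+SGLT2i against HFpEF+Veh, where the medians of all genes tested were 0.01, -0.01 and 0.01. Higher members numbered 20, 25 and 28 of 42 in these comparisons. With libraries scaled by their totals alone they numbered 26, 19 and 22, and the median of all genes then stood at 0.08, -0.14 and -0.07, so the balance of higher and lower members in HFpEF+Veh against non_failing and in HFpEF+TYA-018 against HFpEF+Veh turned with the scaling. In both comparisons of a drug with HFpEF+Veh, 13 of the 42 members had an unadjusted p under 0.05, or 31%, against 17.5% of all genes for TYA-018 and 10% for the SGLT2 inhibitor. These shares were not tested, and both include V2523. The median standard error of a member's log2 fold change was 0.125 in these comparisons. The comparisons of the 3 HFpEF groups with non_failing share the non_failing libraries, and those of the drugs with HFpEF+Veh share the HFpEF+Veh libraries, so their values are set side by side and not counted as independent.

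**Figure D2:**
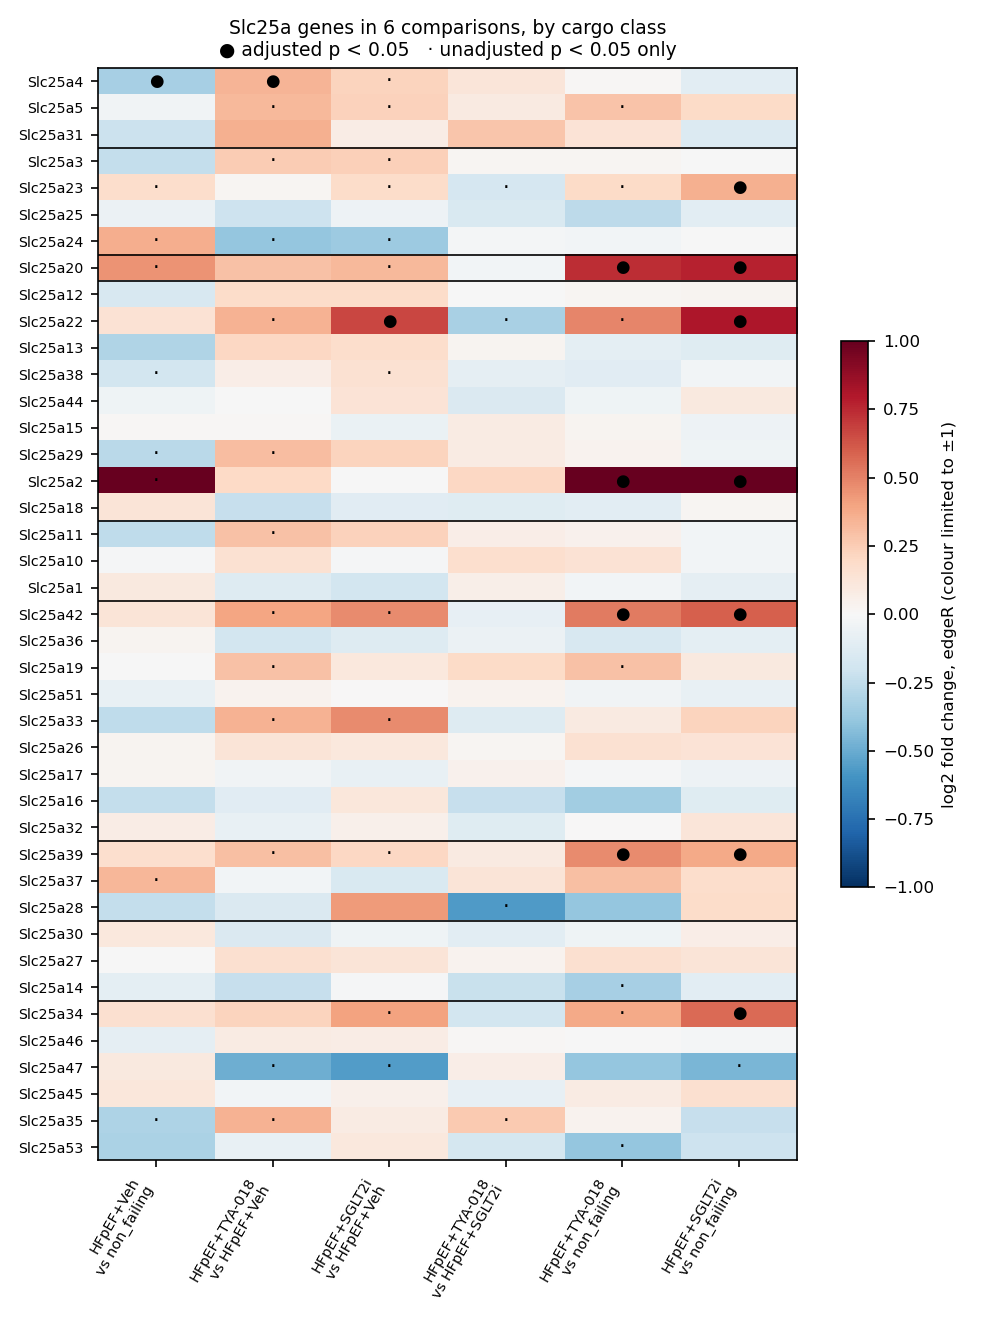
Log2 fold changes of the members in the 6 comparisons, by cargo class, with colour limited to ±1; filled circles mark an adjusted p under 0.05 and small dots an unadjusted p under 0.05 alone. Slc25a40 is not drawn because some of its libraries are at 0, and the column of HFpEF+TYA-018 against HFpEF+SGLT2i has no filled circle.

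The start regions of 5 members that the results turn on were read from RefSeq (GRCm38.p6), as 250 bases before to 50 after the annotated start, 5′ to 3′ on the gene's strand: the ADP/ATP pair, whose ratio differed between groups, and 3 members called in both drug groups against non_failing. Capitals mark the motifs AGGTCA (bound by nuclear receptors), CCAAT and GGGCGG (the GC box) on either strand.
Slc25a4, chr8:46211013-46211312, minus strand: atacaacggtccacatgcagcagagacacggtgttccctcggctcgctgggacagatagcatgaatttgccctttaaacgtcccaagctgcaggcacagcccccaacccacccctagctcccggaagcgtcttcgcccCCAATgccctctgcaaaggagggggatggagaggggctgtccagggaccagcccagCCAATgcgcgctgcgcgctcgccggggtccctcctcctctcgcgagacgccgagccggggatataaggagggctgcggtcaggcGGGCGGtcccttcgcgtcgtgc
Slc25a5, chrX:36795347-36795646, plus strand: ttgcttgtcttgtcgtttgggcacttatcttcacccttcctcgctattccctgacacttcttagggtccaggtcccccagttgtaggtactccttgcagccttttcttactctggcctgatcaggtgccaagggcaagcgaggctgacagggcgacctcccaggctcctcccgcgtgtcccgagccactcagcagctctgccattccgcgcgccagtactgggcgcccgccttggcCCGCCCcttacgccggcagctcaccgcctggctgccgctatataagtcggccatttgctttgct
Slc25a20, chr9:108661886-108662185, plus strand: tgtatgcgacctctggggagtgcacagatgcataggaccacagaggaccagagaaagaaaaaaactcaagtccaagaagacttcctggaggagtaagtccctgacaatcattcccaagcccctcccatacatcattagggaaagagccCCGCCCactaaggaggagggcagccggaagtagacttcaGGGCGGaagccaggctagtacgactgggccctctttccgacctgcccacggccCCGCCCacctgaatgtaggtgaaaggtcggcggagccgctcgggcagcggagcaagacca
Slc25a39, chr11:102407468-102407767, minus strand: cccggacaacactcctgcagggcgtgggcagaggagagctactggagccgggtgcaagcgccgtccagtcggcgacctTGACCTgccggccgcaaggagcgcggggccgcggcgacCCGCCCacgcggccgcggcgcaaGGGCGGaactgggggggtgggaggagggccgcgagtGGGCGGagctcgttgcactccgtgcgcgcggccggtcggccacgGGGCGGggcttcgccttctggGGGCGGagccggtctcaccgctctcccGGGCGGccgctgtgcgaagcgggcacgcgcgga
Slc25a42, chr8:70212232-70212531, minus strand: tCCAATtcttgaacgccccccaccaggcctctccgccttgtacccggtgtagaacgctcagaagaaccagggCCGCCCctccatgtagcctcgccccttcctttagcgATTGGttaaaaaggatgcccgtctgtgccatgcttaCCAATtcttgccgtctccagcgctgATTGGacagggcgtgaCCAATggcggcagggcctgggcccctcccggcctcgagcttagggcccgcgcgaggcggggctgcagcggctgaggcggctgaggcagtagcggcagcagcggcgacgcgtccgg
The Slc25a4 window held CCAAT in 2 places and the Slc25a5 window had none. AGGTCA was found in the Slc25a39 window alone of these 5. RefSeq start regions were matched for 32 members, with 41 windows, and for 10184 of the genes tested, with 13050 windows. GGGCGG occurred in 87.8% of member windows and 60.4% of windows of tested genes, CCAAT in 51.2% and 37.2%, and AGGTCA in 9.76% and 12.7%. The longer motif TCAAGGTCA, which contains AGGTCA, occurred in 0 of 41 member windows and 0.276% of windows of tested genes. A match is a run of letters in this window, not a measured binding site.

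The ADP/ATP carriers exchange cytosolic ADP for ATP made in the matrix. Slc25a4 lies on chr8:46206797-46211284 (minus strand) and Slc25a5, the form of dividing cells (ANT2), on chrX:36795651-36798807 (plus strand). Their annotated transcripts share no run of 31 bases with each other or with Slc25a31, the testis form (ANT4). Slc25a31 was near the floor here, with a mean of 0.206 TPM.

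The level of Slc25a4 ran from 2185 to 3112 TPM in non_failing (median 2631). It ran from 1916 to 2614 TPM in HFpEF+Veh (median 2257), from 2115 to 3099 in HFpEF+TYA-018 (median 2660) and from 1796 to 2848 in HFpEF+SGLT2i (median 2533). The HFpEF+Veh group had the lowest median, all 4 ranges overlapped, and every HFpEF+Veh library lay below the non_failing mean of 2653 ± 318 TPM (SD, n = 8). On counts, Slc25a4 fell in HFpEF+Veh against non_failing (log2 fold change -0.33, SE 0.088, adjusted p = 0.0292 by edgeR, lower in 8 of 8 libraries). The call was lost without V2501, V2502 or V2504 of non_failing or without V2527 or V2530 of HFpEF+Veh (highest adjusted p 0.0755), with library totals as the scaling (-0.26, adjusted p = 0.110) and with no filter on low counts (adjusted p = 0.0820). Without V2523, the highest HFpEF+Veh library, the HFpEF+Veh mean went from 2263 to 2213 TPM and the call held (-0.36, adjusted p = 0.0192). Slc25a4 rose in HFpEF+TYA-018 against HFpEF+Veh (0.34, SE 0.082, adjusted p = 0.0204 by edgeR, with scaled counts higher in 11 of 11 libraries than the HFpEF+Veh mean and TPM in 8 of 11). Here too the call was lost without V2530 (adjusted p = 0.0590), with library totals (0.21, adjusted p = 0.0978), with limma on log2(TPM + 1) (0.21, adjusted p = 0.103) and with the 2 groups fitted alone (adjusted p = 0.0513), and it was kept without V2523 (0.37, adjusted p = 0.0300).

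In HFpEF+SGLT2i against HFpEF+Veh the log2 fold change of Slc25a4 was 0.22 (SE 0.082, adjusted p = 0.268), which missed the threshold. The difference between the drug groups was 0.12 (95% interval -0.03 to 0.27). Against non_failing, Slc25a4 differed by 0.01 in HFpEF+TYA-018 (adjusted p = 0.948) and by -0.11 in HFpEF+SGLT2i (adjusted p = 0.510). Markers of the heart muscle cell moved in part alongside it: Tnnt2, Tnni3 and Myl2, which encode sarcomere proteins, were called lower in HFpEF+Veh against non_failing (-0.43, -0.34 and -0.37). The summed 7 cardiomyocyte markers had a median of 25674 TPM in non_failing, 21749 in HFpEF+Veh, 23500 in HFpEF+TYA-018 and 21938 in HFpEF+SGLT2i, and their part in the Slc25a4 result was not tested. All 5 fibroblast markers were higher in HFpEF+Veh against non_failing (median 0.33), with Lum (0.86) and Pdgfra (0.33) called, and their summed level ran from 160 to 270 TPM in non_failing and from 241 to 577 in HFpEF+Veh. All 5 were lower in HFpEF+TYA-018 against HFpEF+Veh (median -0.27, none called), and their part was likewise not tested. In HFpEF+SGLT2i against non_failing the same 3 sarcomere genes were called lower, while 3 of the 7 markers were higher and the median over the 7 was -0.02 (highest 0.06). In HFpEF+TYA-018 against HFpEF+Veh none of the 7 markers was called, and 5 of 7 were higher, with a median log2 fold change of 0.17 and a highest value of 0.38.

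The level of Slc25a5 ran from 130 to 170 TPM in non_failing (median 150), from 126 to 191 in HFpEF+Veh (median 150), from 130 to 252 in HFpEF+TYA-018 (median 166) and from 113 to 226 in HFpEF+SGLT2i (median 167). The HFpEF+Veh maximum was V2523, without which the HFpEF+Veh median was 140 TPM, and the ranges overlapped throughout. Its log2 fold change was -0.03 in HFpEF+Veh against non_failing (adjusted p = 0.910), 0.32 in HFpEF+TYA-018 against HFpEF+Veh (SE 0.10, adjusted p = 0.0874) and 0.29 in HFpEF+TYA-018 against non_failing (adjusted p = 0.0790), none past the threshold.

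Set against each other within a library, Slc25a4 stood higher over Slc25a5 in non_failing than in the HFpEF groups. The TPM ratio of Slc25a4 to Slc25a5 had a median of 17.5 in non_failing, 14.6 in HFpEF+Veh, 15.1 in HFpEF+TYA-018 and 14.9 in HFpEF+SGLT2i. As a log2 ratio it was 4.14 ± 0.13 (SD, n = 8; 3.98 to 4.39), 3.87 ± 0.17 (n = 8; 3.6 to 4.13), 3.91 ± 0.15 (n = 11; 3.62 to 4.13) and 3.86 ± 0.17 (n = 11; 3.49 to 4.10), so each HFpEF group overlapped non_failing at its upper end. The ratio was lower than in non_failing by exact two-sided permutation tests in HFpEF+Veh (difference -0.27, p = 0.00435, adjusted p = 0.0261), HFpEF+TYA-018 (-0.23, p = 0.00328, adjusted p = 0.0261) and HFpEF+SGLT2i (-0.28, p = 0.000529, adjusted p = 0.00953), with adjustment over 18 tests of 3 ratios. The difference of HFpEF+Veh from non_failing was -0.25 without V2523 (adjusted p = 0.0522), and it also passed the threshold no longer without V2501, V2502, V2521 or V2532. The HFpEF+TYA-018 difference from non_failing lost the threshold without V2501 (-0.19) or V2502 (-0.21). Neither drug group differed from HFpEF+Veh in this ratio by the test (0.04, adjusted p = 0.788 for TYA-018, and -0.02, adjusted p = 0.986 for the SGLT2 inhibitor).

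**Figure D3:**
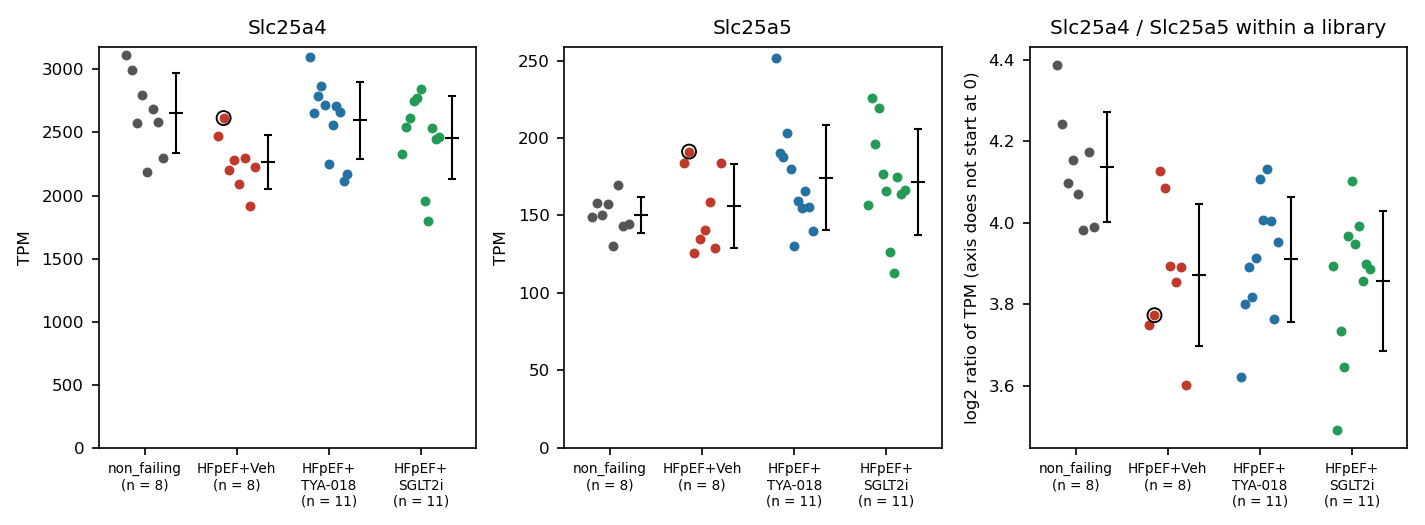
Levels of Slc25a4 and Slc25a5 in TPM and their log2 ratio within each library, by group, with the mean and SD; the axis of the ratio does not start at 0. The log2 ratio lies between 3.98 and 4.39 in the non_failing libraries and between 3.49 and 4.13 in the HFpEF libraries.

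The phosphate class holds Slc25a3, which imports inorganic phosphate, and the calcium-regulated carriers of ATP-Mg for phosphate. Slc25a3 (chr10:91116574-91124059, minus strand) ran from 526 to 854 TPM in non_failing (median 777), from 506 to 827 in HFpEF+Veh (median 620), from 559 to 957 in HFpEF+TYA-018 (median 699) and from 436 to 968 in HFpEF+SGLT2i (median 727). HFpEF+Veh had the lowest median, as for Slc25a4, and the ranges overlapped. Slc25a3 was not called in any comparison: its log2 fold change was -0.24 in HFpEF+Veh against non_failing (SE 0.12, adjusted p = 0.337), 0.26 in HFpEF+TYA-018 against HFpEF+Veh (adjusted p = 0.232) and 0.24 in HFpEF+SGLT2i against HFpEF+Veh (adjusted p = 0.485).

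Slc25a23 (chr17:57043711-57059863, minus strand), a carrier of ATP-Mg for phosphate, ran from 15.9 to 20.3 TPM in non_failing (median 19.2) and from 18.2 to 26.3 in HFpEF+SGLT2i (median 23). Of the HFpEF+SGLT2i libraries, 9 of 11 lay above the highest non_failing library. It rose in HFpEF+SGLT2i against non_failing (0.36, SE 0.079, adjusted p = 0.00335 by edgeR, higher in 10 of 11 libraries). The difference was smaller with an offset for effective length (0.28, adjusted p = 0.0268) and with limma on log2(TPM + 1) (0.29, adjusted p = 0.0363), and both kept the call. HFpEF+Veh held a like level, 20.1 to 27.1 TPM (median 23.2), but its own difference from non_failing was 0.17 and was not called (adjusted p = 0.305). HFpEF+TYA-018 ran from 16.9 to 26.6 TPM (median 22.3), 0.19 above non_failing on the log2 scale (adjusted p = 0.128). Slc25a24, of the same cargo, differed by 0.36 on the log2 scale in HFpEF+Veh against non_failing (adjusted p = 0.185) and of -0.39 in HFpEF+TYA-018 against HFpEF+Veh (adjusted p = 0.112), with no call. Its highest HFpEF+Veh library was V2523, at 5.41 TPM, without which these values were 0.30 (adjusted p = 0.244) and -0.32 (adjusted p = 0.178).

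Slc25a20, the carnitine/acylcarnitine carrier, carries acylcarnitines across the inner membrane, from the outer-membrane palmitoyltransferase (CPT1) that makes them to the inner-membrane one (CPT2) that returns the fatty acid to coenzyme A for oxidation. It lies on chr9:108662088-108684641 (plus strand), and its start region, printed above, held GGGCGG or its complement in 3 places. Its level ran from 24.3 to 48.7 TPM in non_failing (median 35.1), from 35 to 74.7 in HFpEF+Veh (median 48.1), from 36.2 to 73.5 in HFpEF+TYA-018 (median 56.9) and from 32.7 to 81.7 in HFpEF+SGLT2i (median 56.1). All 3 HFpEF medians lay above non_failing, and 10 of 11 HFpEF+TYA-018 and 9 of 11 HFpEF+SGLT2i libraries exceeded the highest non_failing library. Slc25a20 rose in HFpEF+TYA-018 against non_failing (0.74, SE 0.16, adjusted p = 0.00246 by edgeR, higher in 11 of 11) and in HFpEF+SGLT2i against non_failing (0.77, SE 0.16, adjusted p = 0.00177, higher in 10 of 11). Both calls held in all 38 fits with a library removed.

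In HFpEF+Veh against non_failing, Slc25a20 was not called (0.45, SE 0.17, adjusted p = 0.159, higher in 7 of 8 libraries; 0.36, adjusted p = 0.240, without V2523, its highest library). With limma on log2(TPM + 1) it was called there (0.53, adjusted p = 0.0424). It was not called in either drug group against HFpEF+Veh (0.30, adjusted p = 0.328 for TYA-018, and 0.32, adjusted p = 0.485 for the SGLT2 inhibitor). Between the drug groups its difference was -0.03, with a 95% interval of -0.32 to 0.26. The call against non_failing in the drug groups and its absence in HFpEF+Veh therefore do not show a difference between those groups.

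The enzymes that work with Slc25a20 were also examined. Of Cpt1a, Cpt1b, Cpt2 and Crat, which make and break acylcarnitines, 3 of 4 were called higher in HFpEF+Veh against non_failing (1.77% of all genes), and 4 of 4 in HFpEF+TYA-018 (4.0%) and in HFpEF+SGLT2i (3.46%) against non_failing. None was called in either drug group against HFpEF+Veh or between the drugs. Cpt1b, the heart and muscle form of the outer-membrane enzyme, ran from 81.7 to 131 TPM in non_failing and from 151 to 205 in HFpEF+Veh, without overlap. Its log2 fold change was 0.44 in HFpEF+Veh (adjusted p = 0.000827), 0.42 in HFpEF+TYA-018 and 0.56 in HFpEF+SGLT2i, all against non_failing. Cpt2, the inner-membrane enzyme, ran from 63.4 to 92.4 TPM in non_failing and from 107 to 149 in HFpEF+Veh, again without overlap (0.42, adjusted p = 0.0224). In that comparison 0.581% of all genes tested had no overlap. Cpt1a was 0.40 higher in HFpEF+Veh (adjusted p = 0.0281), a call lost without V2523 (0.33, adjusted p = 0.0602). Some markers of other cell types moved in these comparisons too. Of the 12 hepatocyte markers, 12 were called lower in HFpEF+TYA-018 (median -6.02) and 11 in HFpEF+SGLT2i (median -5.33) against non_failing, and none in HFpEF+Veh. All 7 erythroid markers tested were higher in the 3 HFpEF groups, with 2 called in HFpEF+TYA-018 and none in the others. Of the 3 brown adipocyte markers tested, Cidea was called higher than in non_failing in HFpEF+Veh (0.69) and under TYA-018 (0.96) and the SGLT2 inhibitor (0.90), while the summed list ran from 1433 to 2150 TPM in non_failing and from 1269 to 1980 over the 3 HFpEF groups. Fabp4, the 1 white adipocyte marker of 6 that passed the filter, was called in HFpEF+TYA-018 (0.57) and not in the other groups (0.42 and 0.49). Of the 3 fast skeletal muscle markers tested, Acta1, which heart muscle also expresses, was called higher in the 3 HFpEF groups (1.48, 1.52 and 1.44) and Tnnt3 in HFpEF+Veh (2.51). The other 2 tested, Tnni2 and Tnnt3, stood at -0.35 and -0.47 in HFpEF+TYA-018 and at -0.73 and -0.09 in HFpEF+SGLT2i, not called. The summed list ran from 34.4 to 86.7 TPM in non_failing, 130 to 284 in HFpEF+Veh, 90.6 to 362 in HFpEF+TYA-018 and 67.0 to 366 in HFpEF+SGLT2i. Of the 5 fibroblast markers, Lum was called higher in HFpEF+TYA-018 (0.54) and Pdgfra in HFpEF+SGLT2i (0.35) against non_failing, and both in HFpEF+Veh. The part of these markers in the carnitine results was not tested.

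The amino acid class gave calls for 2 of its 9 members, a glutamate carrier and an ornithine carrier. Slc25a22, a glutamate carrier (chr7:141429744-141437892, minus strand), ran from 9.78 to 24.6 TPM in non_failing (median 14.6), from 12.4 to 23.2 in HFpEF+Veh (median 16.4), from 11.4 to 27.4 in HFpEF+TYA-018 (median 19.7) and from 16.1 to 37.6 in HFpEF+SGLT2i (median 24.2). HFpEF+SGLT2i was highest, with 7 of 11 libraries above the highest HFpEF+Veh library, and the ranges still overlapped. It rose in HFpEF+SGLT2i against HFpEF+Veh (0.67, SE 0.16, adjusted p = 0.0275 by edgeR, higher in 10 of 11 libraries) and against non_failing (0.81, SE 0.16, adjusted p = 0.00111, higher in 11 of 11). The call against non_failing held in all 38 fits with a library removed. The call against HFpEF+Veh was lost without V2523 (0.65, adjusted p = 0.141), a fit in which 2 genes in all were called, and without V2521, V2529, V2573, V2574 or V2575. It was also lost with library totals (adjusted p = 0.053), with limma (adjusted p = 0.267) and with the 2 groups fitted alone (adjusted p = 0.0629). In HFpEF+TYA-018 the log2 fold change was 0.35 against HFpEF+Veh (adjusted p = 0.243) and 0.49 against non_failing (adjusted p = 0.0532), the latter called with DESeq2. HFpEF+TYA-018 stood at -0.32 from HFpEF+SGLT2i (95% interval -0.62 to -0.03, unadjusted p = 0.0325, adjusted p = 0.328), which was not called. In HFpEF+SGLT2i against HFpEF+Veh all 12 hepatocyte markers were called lower (median -6.36), as were 2 of the 3 fast skeletal muscle markers tested. The part of these markers in the Slc25a22 result was not tested.

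Slc25a2, an ornithine carrier, was near the floor, and it met the rule of 10 counts in 8 libraries through the HFpEF groups. Its counts ran from 1 to 11 in non_failing, 6 to 24 in HFpEF+Veh, 6 to 26 in HFpEF+TYA-018 and 3 to 23 in HFpEF+SGLT2i, and its levels had medians of 0.0916, 0.220, 0.225 and 0.220 TPM. The 3 HFpEF medians were close to each other, and the ranges overlapped non_failing. It was called against non_failing in HFpEF+TYA-018 (1.38, SE 0.36, adjusted p = 0.0124 by edgeR, higher in 11 of 11) and in HFpEF+SGLT2i (1.18, SE 0.36, adjusted p = 0.0388, higher in 10 of 11). Because its entry rested on the groups where it is high, the direction of these calls was favoured in advance. In HFpEF+Veh against non_failing its log2 fold change was 1.18 as well, with an adjusted p of 0.0790. In HFpEF+SGLT2i the call held in 28 of 38 fits that left out 1 library, and was lost without V2501, V2502, V2503, V2507 or V2510 of non_failing or V2561, V2565, V2566, V2571 or V2573 of HFpEF+SGLT2i (highest adjusted p 0.0893). Both calls were lost with limma on log2(TPM + 1) (adjusted p = 0.0507 and 0.0881), the HFpEF+SGLT2i call also with no filter on low counts (adjusted p = 0.0508), and Slc25a2 did not pass the filter when the 2 groups were fitted alone.

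The aspartate/glutamate carriers, which export aspartate from the matrix for the malate-aspartate shuttle, were not called. Slc25a12 (aralar) ran from 20.6 to 38.2 TPM in non_failing and from 21.4 to 42.6 in HFpEF+Veh, and reached 54.8 in HFpEF+SGLT2i. Slc25a13 (citrin) had medians of 17.7 TPM in non_failing and 13.3 in HFpEF+Veh, where the fitted difference was -0.30 on the log2 scale (SE 0.15, adjusted p = 0.336). Without V2523 its HFpEF+Veh median was 12.3 TPM and the difference -0.39 (adjusted p = 0.158). The groups overlapped for both carriers. No comparison of the Slc25a12 to Slc25a13 ratio passed the threshold on TPM (lowest adjusted p 0.148). Slc25a44, a carrier of branched chain amino acids, stayed between log2 fold changes of -0.14 and 0.14 in the 6 comparisons (lowest adjusted p 0.395). The other amino acid carriers (Slc25a15, Slc25a18, Slc25a29 and Slc25a38) had log2 fold changes from -0.27 to 0.31 with no call.

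The di- and tricarboxylate carriers had no call among 3 members. Slc25a11, which exchanges malate for 2-oxoglutarate in the malate-aspartate shuttle, ran from 136 to 221 TPM in non_failing (median 194), from 134 to 210 in HFpEF+Veh (median 159), from 136 to 220 in HFpEF+TYA-018 and from 105 to 244 in HFpEF+SGLT2i (median 177). The groups overlapped. Slc25a11 overlaps Rnf167 on the opposite strand, as Slc25a23 does Gm17168. The library kit marks strand, but the strand setting of the quantification is not given in the sources used here. The log2 fold change of Slc25a11 was -0.25 in HFpEF+Veh against non_failing (SE 0.14, adjusted p = 0.399) and 0.29 in HFpEF+TYA-018 against HFpEF+Veh (SE 0.13, adjusted p = 0.243), the smallest p of the class, and without V2523 these were -0.31 (adjusted p = 0.255) and 0.35 (adjusted p = 0.159). Slc25a1, the citrate carrier that feeds cytosolic lipid synthesis, averaged 4.24 TPM and stayed between -0.18 and 0.10 (lowest adjusted p 0.624). The 4 cytosolic and mitochondrial enzymes of the malate-aspartate shuttle were not called in any of the 6 comparisons.

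Of the 9 nucleotide and cofactor carriers, Slc25a42 was called. It carries coenzyme A into the matrix and lies on chr8:70184340-70212305 (minus strand). The printed start region held CCAAT or its complement in 5 places. Its level ran from 8.45 to 19.8 TPM in non_failing (median 18.7), from 15.0 to 23.2 in HFpEF+Veh (median 19.6), from 12.1 to 30.4 in HFpEF+TYA-018 (median 24.9) and from 18.2 to 31.9 in HFpEF+SGLT2i (median 27.5). The drug groups were higher: 9 of 11 HFpEF+TYA-018 and 10 of 11 HFpEF+SGLT2i libraries lay above the highest non_failing library, with V2507 lowest in non_failing and V2555 lowest in HFpEF+TYA-018. Slc25a42 rose against non_failing in HFpEF+TYA-018 (0.52, SE 0.14, adjusted p = 0.0147 by edgeR, higher in 10 of 11) and in HFpEF+SGLT2i (0.60, SE 0.14, adjusted p = 0.00515, higher in 11 of 11). Without V2507 both calls held (adjusted p = 0.0466 and 0.0182). The HFpEF+TYA-018 call was lost with library totals (adjusted p = 0.0513) and with the 2 groups fitted alone (adjusted p = 0.0501). Against HFpEF+Veh it was not called (0.39, adjusted p = 0.118 for TYA-018, and 0.47, adjusted p = 0.109 for the SGLT2 inhibitor). Slc25a33, a pyrimidine nucleotide carrier, was 0.48 above HFpEF+Veh in HFpEF+SGLT2i (SE 0.13, adjusted p = 0.0644) without a call by edgeR. It was called there with DESeq2 and with no filter on low counts. The other 7 members of the class ranged from -0.35 to 0.29.

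In the iron and glutathione class, Slc25a39, which supplies glutathione to the matrix, rose in both drug groups against non_failing. Slc25a39 (chr11:102402985-102407946, minus strand) ran from 39.8 to 59.2 TPM in non_failing (median 51.8), from 47.9 to 74.7 in HFpEF+Veh (median 62.0), from 59.4 to 81.5 in HFpEF+TYA-018 (median 69.0) and from 51.4 to 78.3 in HFpEF+SGLT2i (median 66.6). The ranges of HFpEF+TYA-018 and non_failing just cleared each other on TPM (59.4 against 59.2), which made 1 of 42 members without overlap in that comparison, where 0.872% of all genes tested had none. No member was without overlap in the other 5 comparisons, where the share of all genes was 0.581% in HFpEF+Veh and 0.719% in HFpEF+SGLT2i against non_failing, 0.102% and 0.0145% in HFpEF+TYA-018 and HFpEF+SGLT2i against HFpEF+Veh, and 0.00726% between the drugs. They overlapped on scaled counts, where 10 of 11 HFpEF+TYA-018 libraries exceeded the highest non_failing library. Slc25a39 rose against non_failing in HFpEF+TYA-018 (0.47, SE 0.096, adjusted p = 0.00141 by edgeR) and in HFpEF+SGLT2i (0.38, SE 0.096, adjusted p = 0.0104), higher in 11 of 11 libraries of each. Both calls held whichever of the 38 libraries was removed. HFpEF+Veh stood 0.17 above non_failing (adjusted p = 0.424), a difference that was called with limma on log2(TPM + 1) (0.27, adjusted p = 0.0219), and HFpEF+TYA-018 0.30 above HFpEF+Veh (adjusted p = 0.0866), the latter 0.36 without V2523 (adjusted p = 0.0498). All 7 erythroid markers tested were also higher in HFpEF+TYA-018 against non_failing (median log2 fold change 1.15), with Hbb-bs and Slc4a1 called. In HFpEF+Veh against non_failing, where Slc25a39 was not called by edgeR, all 7 were higher as well (median 1.29, none called). Their summed level ran from 3786 to 8147 TPM in non_failing, from 5780 to 41881 in HFpEF+Veh, from 4811 to 22939 in HFpEF+TYA-018 and from 4720 to 16050 in HFpEF+SGLT2i. V2552 and V2551 were highest in HFpEF+TYA-018 both for Slc25a39 (81.5 and 76.7 TPM) and for this sum, whereas V2571, highest for the sum in HFpEF+SGLT2i, held 57.4 TPM of Slc25a39 against a group median of 66.6. The part of the erythroid markers in the Slc25a39 result was not tested. HFpEF+TYA-018 and HFpEF+SGLT2i differed in Slc25a39 by 0.09 (95% interval -0.09 to 0.27).

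The second glutathione carrier, Slc25a40, was listed at 0 counts in 9 of 38 libraries (4 of them HFpEF+TYA-018, 2 HFpEF+Veh, 2 non_failing and 1 HFpEF+SGLT2i) and at 24.8 to 284 counts in the rest, so no fold change is given. The mitoferrins bring iron into the matrix. Slc25a37 (mitoferrin 1) had a median of 6.85 TPM in non_failing and 9.07 in HFpEF+Veh, with 8.14 under TYA-018 and 7.33 under the SGLT2 inhibitor, and was not called. Its highest library was also that with the highest summed erythroid markers in the 3 HFpEF groups (V2529, V2551 and V2571), whereas in non_failing V2507 had the highest sum (8147 TPM) and the lowest Slc25a37 (5.73 TPM). The part of the erythroid markers in these levels was not tested. Slc25a28 (mitoferrin 2) gave the lowest adjusted p between the drug groups, with HFpEF+TYA-018 at -0.57 from HFpEF+SGLT2i (SE 0.23, adjusted p = 0.287).

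**Figure D4:**
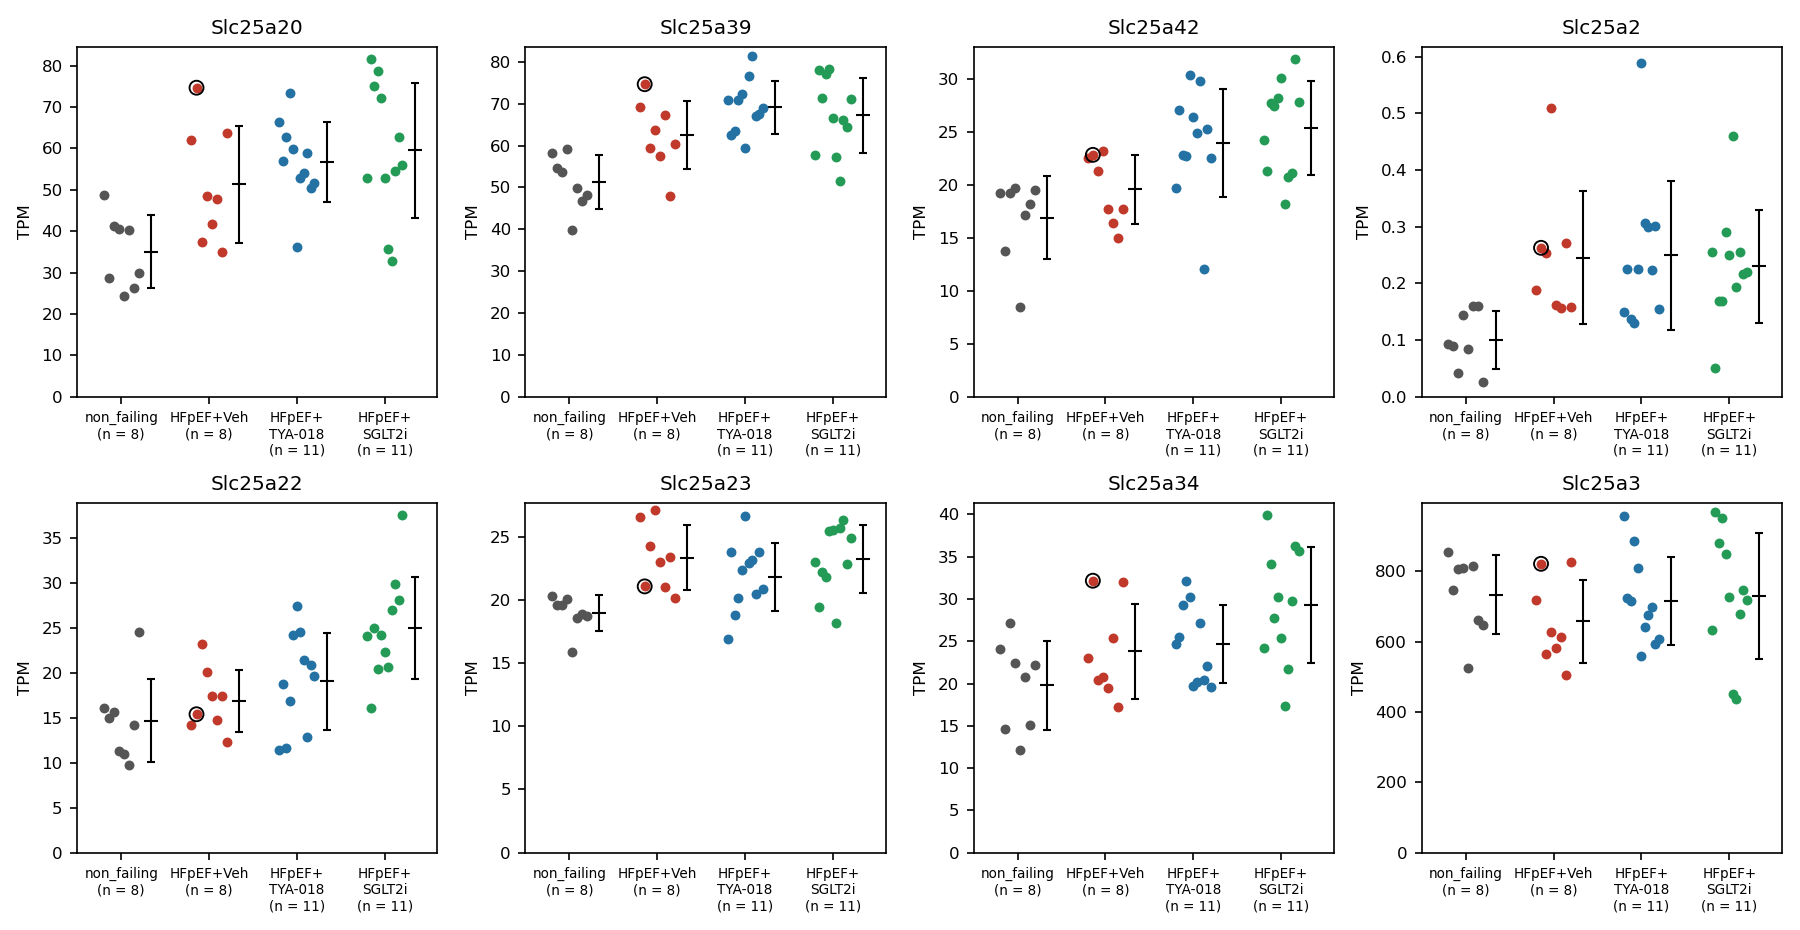
Levels in TPM of the 7 members called in a drug group, other than Slc25a4, and of Slc25a3, in each library by group, with the mean and SD. For Slc25a39 the HFpEF+TYA-018 libraries start at 59.4, above the highest non_failing library at 59.2.

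The members that resemble uncoupling proteins were not called. The smallest p of these 3 was for Slc25a14, at -0.33 in HFpEF+TYA-018 against non_failing (SE 0.16, adjusted p = 0.222). Slc25a14 averaged 0.974 TPM, Slc25a27 2.35 and Slc25a30 3.00. Of the uncoupling proteins themselves, which are carriers named Ucp and so not members, Ucp1 was too low to test (0 to 5 counts per library) and Ucp2 was not called in any comparison with HFpEF+Veh. Ucp3, the muscle form, rose in HFpEF+TYA-018 against HFpEF+Veh (0.79, adjusted p = 0.0370) and in HFpEF+SGLT2i against HFpEF+Veh (1.17, adjusted p = 0.00129). Its level ran from 8.24 to 15.2 TPM in HFpEF+Veh and from 16 to 38.4 in HFpEF+SGLT2i, without overlap, as for 0.0145% of all genes tested. Ucp3 also rose in both drug groups against non_failing (0.83 and 1.21), where V2510 reached 24.9 TPM.

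Among the 6 members with no settled cargo, Slc25a34 (chr4:141618824-141623821, minus strand) was called. It ran from 12.1 to 27.1 TPM in non_failing (median 21.5), from 17.2 to 32.2 in HFpEF+Veh (median 21.9), from 19.6 to 32.2 in HFpEF+TYA-018 (median 24.7) and from 17.3 to 39.9 in HFpEF+SGLT2i (median 29.8). HFpEF+SGLT2i had 7 of 11 libraries above the highest non_failing library, and the ranges overlapped. Slc25a34 rose in HFpEF+SGLT2i against non_failing (0.56, SE 0.15, adjusted p = 0.0153 by edgeR, higher in 10 of 11), and the call was lost without V2507 (adjusted p = 0.0509). In HFpEF+TYA-018 its log2 fold change from non_failing was 0.38 (adjusted p = 0.108). Slc25a47, known from liver, was highest in V2523 at 10.2 TPM against 3.67 in the next HFpEF+Veh library. Its log2 fold change in HFpEF+TYA-018 against HFpEF+Veh was -0.49 with V2523 (adjusted p = 0.237) and -0.05 without it.

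The calls differed in how far they rested on single libraries. Of the 38 fits, 16 drop a library of HFpEF+Veh or non_failing, and 19 drop one of a drug group or the group set against it. Every lost call was lost in a fit that dropped a library of the 2 groups compared. For Slc25a22 against HFpEF+Veh the other fits left the log2 fold change at 0.667 to 0.670, so they say little about single libraries. The 4 calls of HFpEF+TYA-018 against non_failing each held in 38 of 38 fits, and so did 5 of the 7 calls of HFpEF+SGLT2i against non_failing, the exceptions being Slc25a34 and Slc25a2. Without V2571, 6 of the 7 HFpEF+SGLT2i calls held, all but Slc25a2. The Slc25a4 call held in 33 of 38 fits in HFpEF+Veh against non_failing and in 37 of 38 in HFpEF+TYA-018 against HFpEF+Veh. The Slc25a22 call of HFpEF+SGLT2i against HFpEF+Veh held in 32 of 38.

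**Figure D5:**
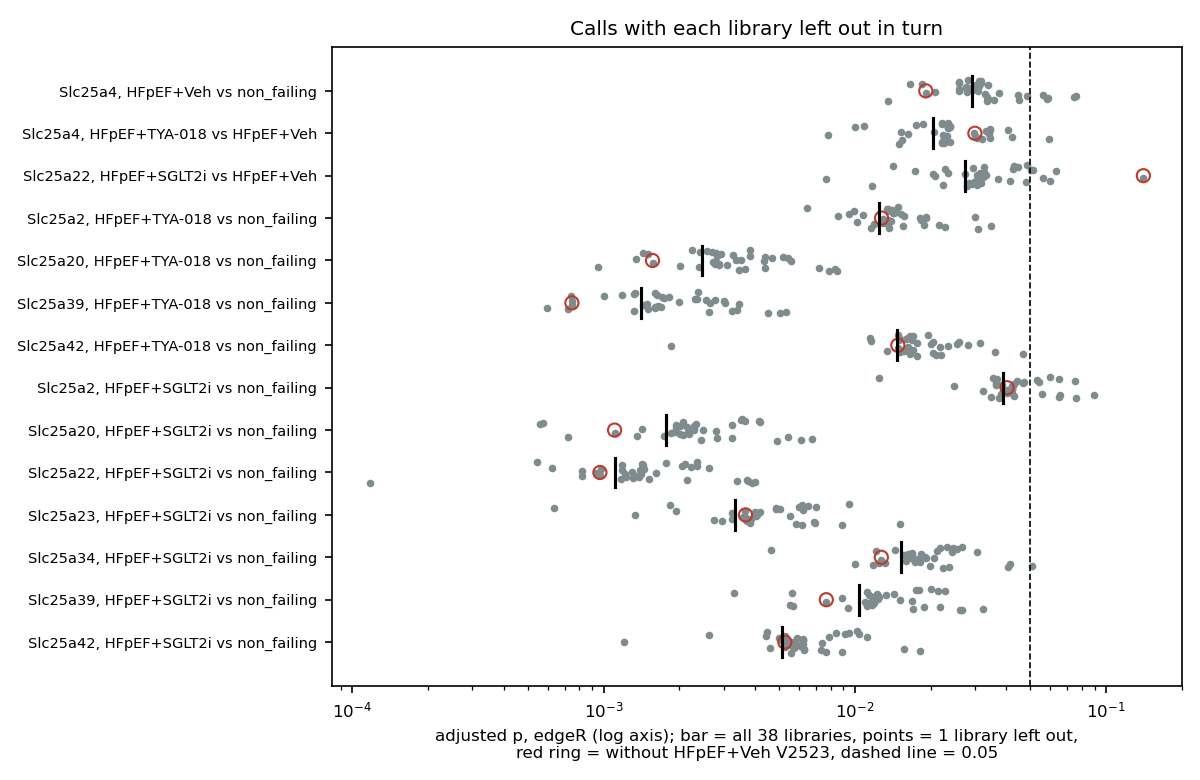
Adjusted p of each call on a log axis; bars give all 38 libraries, points the fits with 1 library left out, red rings those without V2523, and the dashed line the threshold of 0.05. Slc25a39 and Slc25a20 stay left of the line in every fit of both drug groups against non_failing, and the Slc25a22 ring of HFpEF+SGLT2i against HFpEF+Veh lies at 0.141.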

How the data were processed

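RNA from the left ventricle of 38 mice was sequenced by the study from poly(A) libraries made with a stranded kit, and per the labels quantified with Salmon 1.6.0. The authors deposited expected counts per gene, TPM and effective lengths, with no further scaling. The labels name a human build, and the methods GRCm38. The labels give female mice, and the methods male mice. Read length and length of treatment also differ between these sources.

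The expected counts were made whole by rounding. Genes passed edgeR's filterByExpr by group, which left 13765 of 29564. TMM scaling and 1 quasi-likelihood model of all 4 groups (edgeR 4.0.16, R 4.3.3) gave the fold changes, with Benjamini-Hochberg adjustment over all genes tested and a threshold of 0.05. Each SE is the log2 fold change over the square root of its F. A library counts as higher where its TPM exceeds the other group's mean. Deposited TPM were used for levels and ratios, and the effective lengths for a length offset. Ratios were compared by exact permutation tests (SciPy 1.17.1), or 100000 resamples for 11 against 11 libraries. Start regions came from RefSeq, and gene positions from GENCODE M21 (GRCm38).

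Members and lists were chosen with earlier results of these data known. Named members were Slc25a3, Slc25a4, Slc25a5, Slc25a20, Slc25a12, Slc25a13, Slc25a11, Slc25a1 and Slc25a44, those called, and the smallest p of a class without calls. Others were chosen after their values were seen. Alternatives were library totals, DESeq2 1.42.0, no filter, limma 3.58.1 on log2(TPM + 1), the length offset, the 2 groups alone, and each library left out. The fitting code was tested on simulated data.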

Additional observations from a re-analysis of the deposited data

Results flagged for a closer look

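In the groups of 8 mice, 7 of 84 member and group combinations (8.33%) had a library set apart from the rest by a gap test that chance passes in about 1 of 20. HFpEF+Veh V2523, the library with high hepatocyte markers, was the high one for 3 of them: Slc25a15, which carries ornithine and citrulline, at 4.41 TPM (next 2.80), the peroxisomal cofactor carrier Slc25a17 at 11.9 TPM (next 8.68) and Slc25a47 at 10.2 TPM (next 3.67). None of these 3 was called in any comparison. In HFpEF+Veh, Slc25a2 was also high in V2527 at 0.509 TPM (next 0.271) and Slc25a33 in V2532 at 10.6 TPM (next 8.25). In non_failing, Slc25a23 was low in V2507 at 15.9 TPM (next 18.6), the library that was lowest for 23 of 42 members, and Slc25a22 was high in V2510 at 24.6 TPM (next 16.1). The Slc25a23 call in HFpEF+SGLT2i against non_failing held without V2507 (adjusted p = 0.0152 by edgeR).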

How the results depend on the processing

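No called member or called ratio changed direction under the alternatives. Differences near 0 that were not called did, among them the following. The log2 ratio of Slc25a4 to Slc25a5 went from 0.04 to as low as -0.00 for HFpEF+TYA-018 and from -0.02 to as high as 0.02 for HFpEF+SGLT2i against HFpEF+Veh, and that of Slc25a12 to Slc25a13 from 0.01 to as low as -0.05 for HFpEF+TYA-018 against non_failing, with 1 library left out. Members called numbered 1, 1, 1, 0, 4 and 7 in HFpEF+Veh against non_failing, HFpEF+TYA-018 against HFpEF+Veh, HFpEF+SGLT2i against HFpEF+Veh, HFpEF+TYA-018 against HFpEF+SGLT2i, and the drug groups against non_failing in the same order. In that order they numbered 1, 0, 0, 0, 2 and 6 with the 2 groups fitted alone, 1, 1, 2, 0, 5 and 7 with DESeq2, 1, 2, 1, 0, 4 and 7 with the length offset, 3, 0, 0, 0, 3 and 6 with limma (in the first, Slc25a20 and Slc25a39, both higher, beside Slc25a4), 0, 1, 2, 0, 4 and 6 with no filter, and 1, 2, 0, 0, 4 and 7 without V2523. Library totals gave 1, 1, 0, 0, 3 and 7, where the members called were Slc25a2 (higher) in the first comparison and Slc25a24 (lower) in the second, in place of Slc25a4. With 1 library left out the counts ranged from 0 to 2, 0 to 2, 0 to 3, 0 to 0, 4 to 6 and 5 to 7. The first fell to 0 without V2501, V2502, V2504, V2527 or V2530 and reached 2 without V2562. The second fell to 0 without V2530 and reached 2 without V2523 or V2555. The third fell to 0 without V2521, V2523, V2529, V2573, V2574 or V2575, and reached 2 without V2532, V2543, V2555 or V2572 and 3 without V2571.

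The log2 ratio of Slc25a4 to Slc25a5 ranged from -0.30 to -0.23 for HFpEF+Veh and from -0.25 to -0.19 for HFpEF+TYA-018 against non_failing with 1 library left out, passing the threshold in most but not all. The ratio of Slc25a12 to Slc25a13 passed it without V2543 in HFpEF+TYA-018 against HFpEF+Veh (-0.23, adjusted p = 0.0484 by exact permutation, range -0.23 to -0.14) and against HFpEF+SGLT2i (-0.24, range -0.24 to -0.15), and on counts in HFpEF+SGLT2i against non_failing (0.16). The causes were not tested. No paired analysis was possible because each mouse has its own number and no number is shared between groups. Depth limits Slc25a2, at 1 to 26 counts per library.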

Other observations

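Other transport proteins of the mitochondrion were examined with the same fit. The pyruvate carrier genes (2 tested), the calcium uniporter complex (6), the porins of the outer membrane (3) and the sideroflexins (5) had no member called in any of the 6 comparisons. The uncoupling protein gene Ucp2 was called higher against non_failing in HFpEF+TYA-018 (0.68, adjusted p = 0.0212 by edgeR) and in HFpEF+SGLT2i (0.89, adjusted p = 0.00250). Ucp2 was not called in HFpEF+Veh, yet it stood as high there. Its medians were 9.62 TPM in non_failing, 14.8 in HFpEF+Veh, 14.8 in HFpEF+TYA-018 and 15.9 in HFpEF+SGLT2i. Its level ran from 7.02 to 13.7 TPM in non_failing and from 10.2 to 48.2 in HFpEF+SGLT2i, with the highest value in V2571, which also had the highest summed erythroid, white adipocyte, endothelial and macrophage markers of its group and the lowest summed cardiomyocyte markers of the 38 libraries. Of the 4 other carrier family genes tested, 3 were called higher in HFpEF+TYA-018 against non_failing (Ucp2, Ucp3 and Mtch1, the last by 0.21, adjusted p = 0.0461), where 4.0% of all genes were called higher. Of the 6 genes tested for the machinery that inserts carriers into the inner membrane, Timm22 was called in that comparison (0.33, adjusted p = 0.00907) and the other 5 were not.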
